A study of Mus musculus with 42 samples.

Results

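The potassium channel genes described here are the 94 genes whose name starts with Kcn in each of 3 tables of mouse expression values, out of 20661 genes in the tables. They were chosen by name alone and grouped by the letter after Kcn, from Kcna to Kcnv. The values are RPKM, reads scaled by the length of the gene model and the depth of the library, which allows levels of genes of different length to be set side by side within a table. The first table holds ribosome-bound RNA captured from mature oligodendrocytes by translating ribosome affinity purification (TRAP), in 7 libraries of frontal cortex, 6 of subcortical white matter, 6 of cerebellum and 5 of spinal cord. The labels give neither the driver of the ribosome tag nor the age of these mice. The second table holds whole-tissue RNA of frontal cortex from 3 rTg4510-negative and 3 rTg4510-positive libraries, all marked 8mo in the title. The rTg4510 line expresses mutant human tau in forebrain excitatory neurons through a Camk2a-driven transactivator, and the labels do not say whether the negative mice carry that transactivator. The third table holds whole-tissue RNA of prefrontal cortex from 4 libraries of miR-142 null mice, 4 of heterozygotes and 4 of the wild type, the last given in the genotype label only as miR-142 and in the title as WT. The labels do not state that each library is a different mouse, so p-values measure only the spread between these libraries, which may be technical.

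Potassium channels let potassium leave or enter the cell and so set the resting voltage and end the action potential. The Kcna, Kcnb, Kcnc and Kcnd genes encode the pore subunits of the classical voltage-gated channels, Kcnf, Kcng, Kcns and Kcnv encode subunits that form no channel alone and modify Kcnb channels, and Kcnh and Kcnq encode further voltage-gated families. Kcnj genes encode inward rectifiers, Kcnk genes the two-pore-domain leak channels, and Kcnm, Kcnn and Kcnt genes channels opened by calcium or sodium. In myelinated fibres the Kcna1 and Kcna2 channels lie under the myelin beside the node of Ranvier, while Kcnj10 of oligodendrocytes and astrocytes takes up potassium released by firing axons.

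The TRAP libraries held 3262439 to 36785943 reads and the whole-tissue libraries 13868316 to 31801328 reads, taken as the smallest totals that make the values whole reads. All 8 mature oligodendrocyte markers were above 0 in every TRAP library, and their summed level was 5250 to 10080 RPKM in frontal cortex, 10070 to 50890 in the white matter, 7713 to 49610 in the cerebellum and 30810 to 55180 in spinal cord. Neuronal RNA was abundant in the same libraries. The sum of 6 pan-neuronal markers was 4844 to 11390 RPKM in cortex, 4001 to 8554 in the white matter, 3645 to 7847 in the cerebellum and 4289 to 6828 in the spinal cord. The sum of 5 forebrain excitatory neuron markers was 2667 to 4962, 864.5 to 3601, 29.0 to 122.5 and 20.7 to 173.6 RPKM in the same order. The forebrain excitatory sums were higher in cortex and white matter than in cerebellum and spinal cord, without overlap. Pan-neuronal sums overlapped between all regions. The part of these sums in the regional results below was not tested. In such samples fewer cells of a type and less RNA per cell cannot be told apart.

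The summed RPKM of the 94 genes overlapped between regions. It was 3469 to 3847 in cortex, 3041 to 3639 in the white matter, 3020 to 3747 in the cerebellum and 2758 to 3985 in the spinal cord. As a share of the RPKM sum of all genes it was 0.453% to 0.597% in cortex and 0.305% to 0.458% in spinal cord. These shares overlapped only through cortex replicate 7. White matter held 0.385% to 0.530% and cerebellum 0.393% to 0.517%. The makeup of the sum differed between regions. Among the highest mean levels in cortex were those of Kcna2 (479 ± 87.5 RPKM, SD), Kcna1 (348 ± 60.2) and Kcnab2 (236 ± 58.1), a beta subunit of Kcna channels. In white matter they belonged to Kcna1 and Kcnj10, and in the cerebellum and spinal cord to Kcnj10 and Kcna1, in that order. Kcnj10 alone held 4.16% to 6.36% of the Kcn sum in cortex libraries and 20.3% to 40.4% in spinal cord libraries, which do not overlap. Members at 0.5 RPKM or more numbered 69 to 74 in a cortex library and 65 to 75 in a white matter library. They numbered 52 to 62 in a cerebellum library and 52 to 60 in a spinal cord library. The same count over all genes is not given here, so these counts cannot be read as particular to the members.

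**Figure D1:**
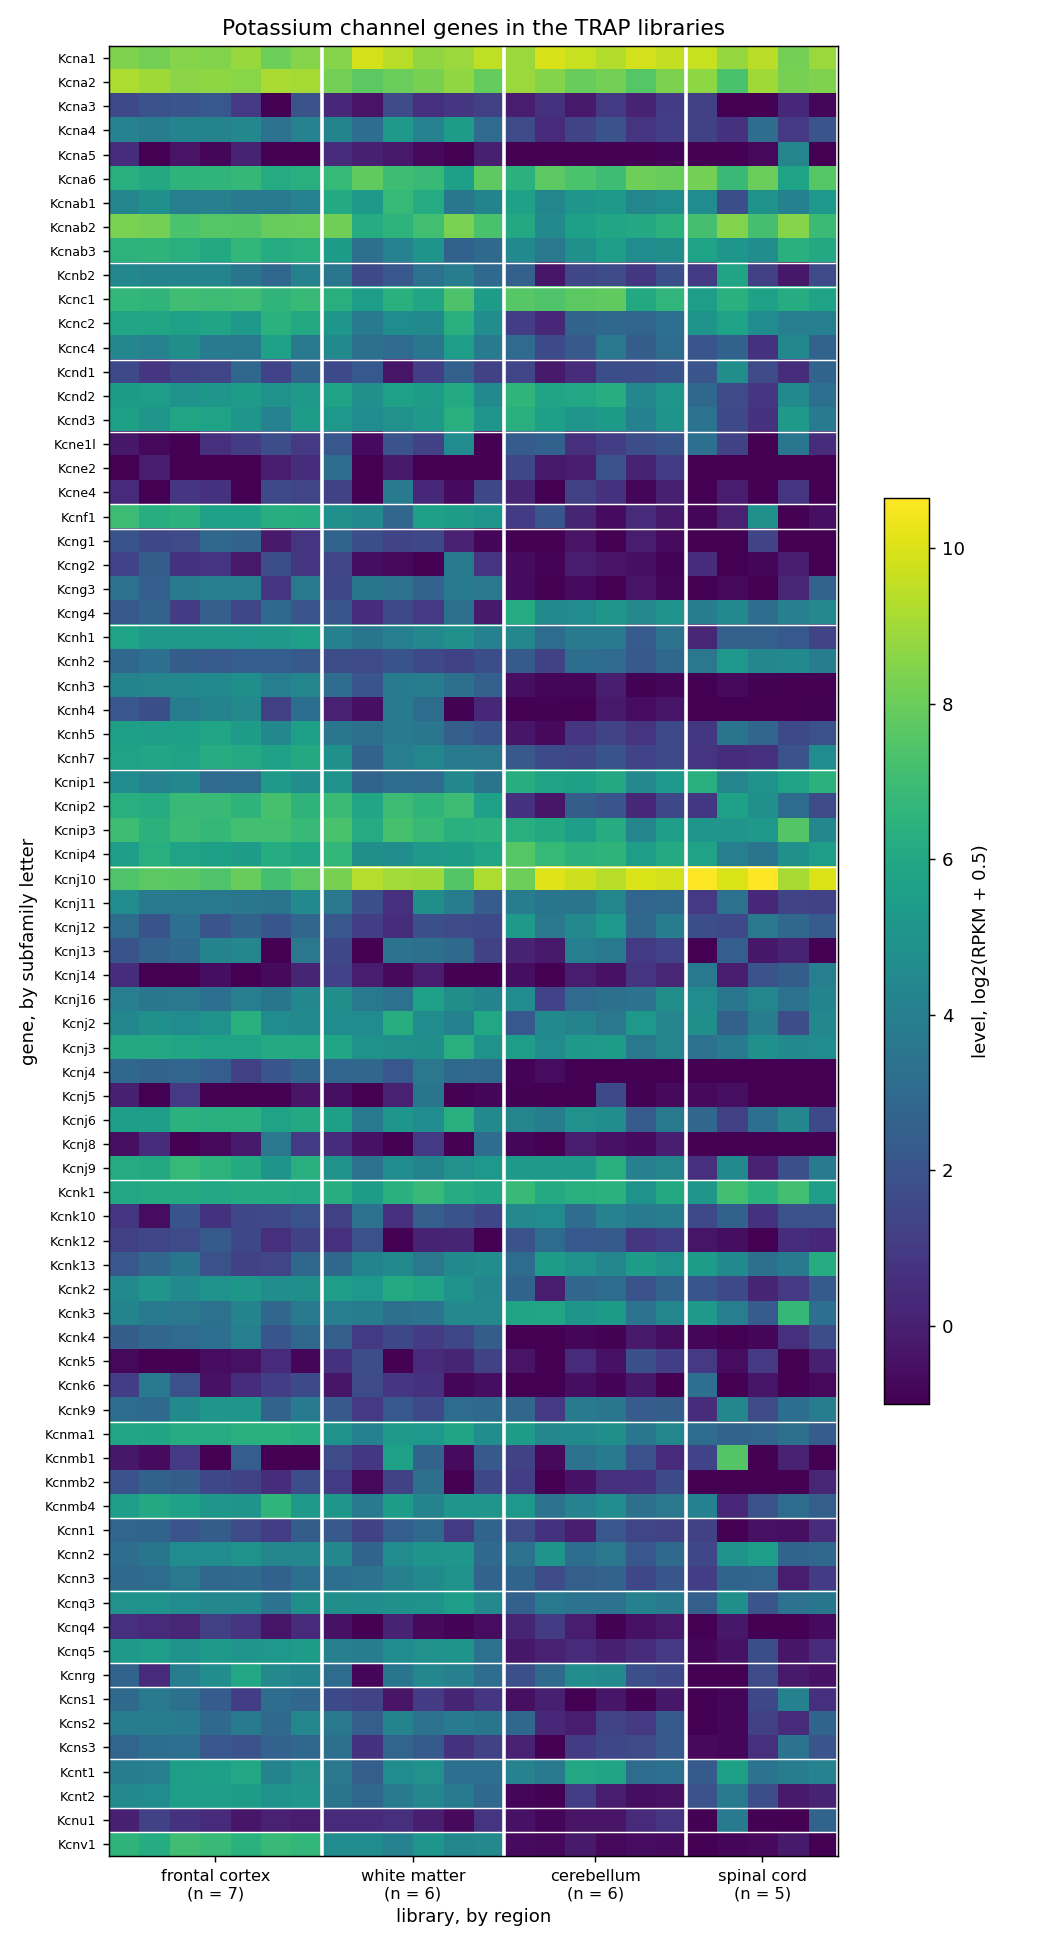
Levels of 75 Kcn genes tested in the TRAP table, as log2(RPKM + 0.5), with 1 row per gene ordered by subfamily letter and 1 column per library grouped by region (7 frontal cortex, 6 white matter, 6 cerebellum, 5 spinal cord). Kcnv1, Kcnh3 and Kcnj4 are dark in all cerebellum and spinal cord columns, and Kcnj10 is brightest in spinal cord replicates 3 and 5.

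Of the 94 genes, 78 passed the filter on low values in the TRAP table (at least 0.5 RPKM in at least 5 libraries), 79 in the rTg4510 table and 78 in the miR-142 table, and 12 passed in none. Tests were run with limma on log2(RPKM + 0.5) over all genes of a table, and a gene is called where the adjusted p was under 0.05. On this scale the changes of low genes are understated. Across the 4 TRAP regions 57 of 78 members (73.1%) were called by the moderated F test, beside 47.1% of all 13982 genes tested. Frontal cortex was then set against the mean of the other 3 regions, and 50 members were called, 42 higher and 8 lower, beside 32.7% of all genes called in either direction (18.3% higher, 14.5% lower). The median log2 fold change was 1.02 over the 78 members and 0.11 over all genes. White matter had 15 members higher and 6 lower (6.85% of all genes called, 5.14% higher and 1.72% lower), cerebellum 10 higher and 20 lower (13% of all genes called, 6.08% higher and 6.92% lower) and spinal cord 6 higher and 37 lower (38.3% of all genes called, 12.6% higher and 25.7% lower). The medians of the members were 0.51, -0.39 and -0.97, and those of all genes 0.08, 0.10 and -0.33. Under quantile normalization the spinal cord medians became -0.58 and -0.04, so part of that shift depends on the scaling. Without spinal cord replicates 4 and 7, of which replicate 7 is the shallowest TRAP library, spinal cord had 6 members higher and 35 lower. The 4 contrasts share their libraries, and are given side by side for that reason. Cortex held the highest mean of the 4 regions for 40 of the 78 members (51.3%), beside 28.7% of all genes tested.

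**Figure D2:**
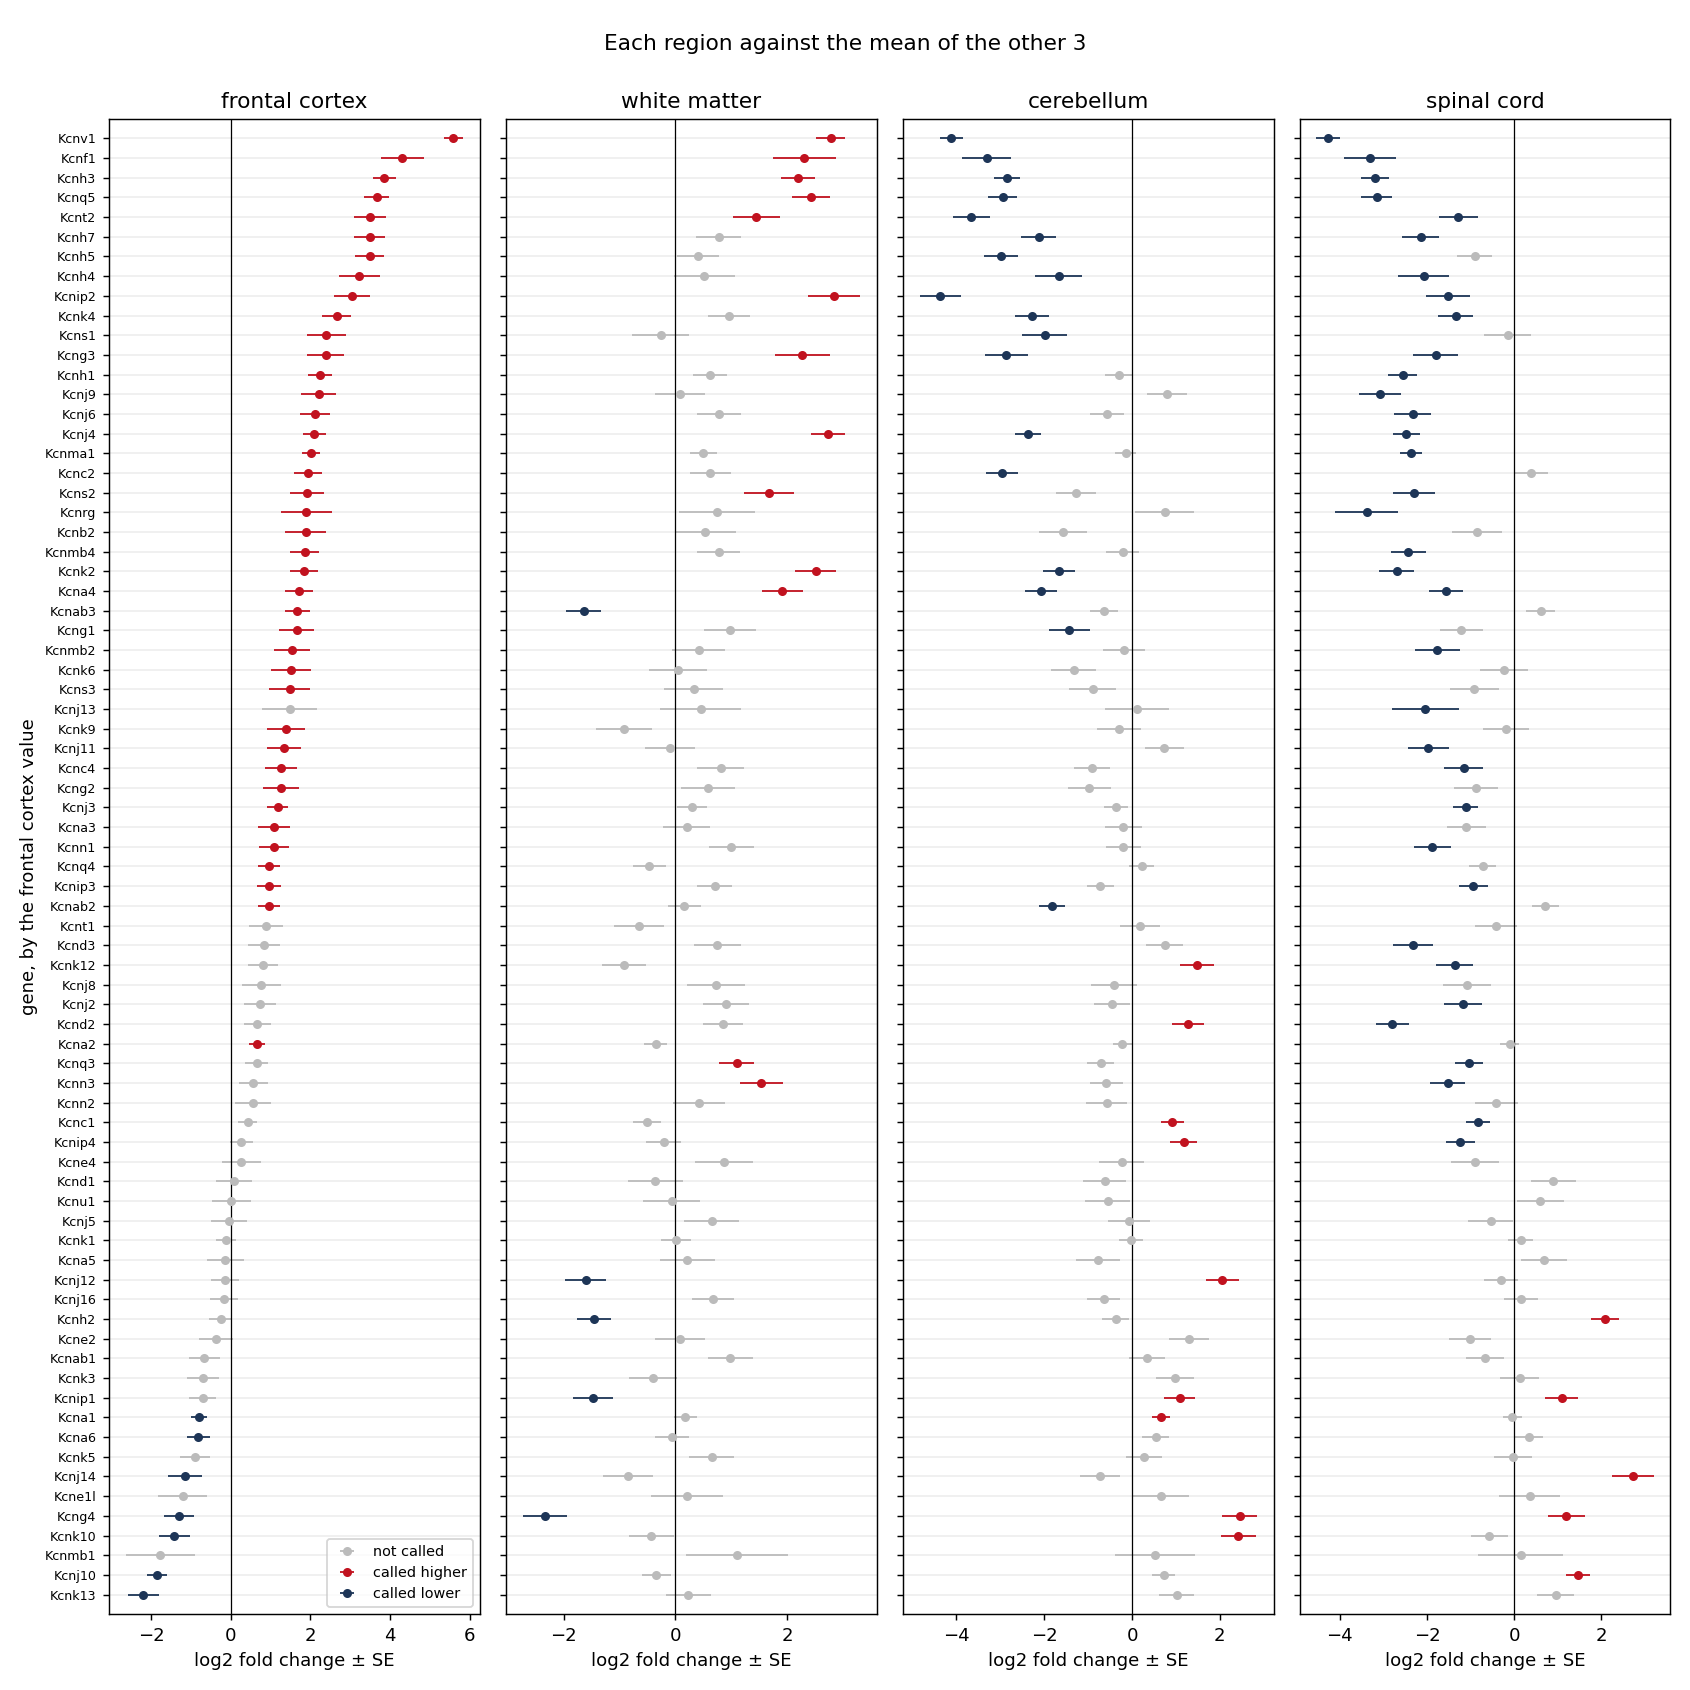
Log2 fold change with its standard error for each of 75 Kcn genes in each TRAP region against the mean of the other 3, with genes ordered by the frontal cortex value. Red points are called higher, dark blue points called lower and grey points not called (limma, adjusted p under 0.05); Kcnv1 is at the top with 5.60 in cortex and Kcnk13 at the bottom with -2.20.

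The modifier subunits of the Kcnf, Kcng, Kcns and Kcnv families spanned log2 fold changes from -1.31 to 5.60 in cortex. Of 9 tested, 8 were higher in cortex and 1, Kcng4, was lower. Kcnv1 (chr15:45096086-45115912 in GRCm38) encodes a subunit that suppresses Kcnb currents. It stood at 72.3 RPKM in the lowest cortex library, 103.5 in the median and 134.5 in the highest. In white matter its lowest, median and highest values were 17.6, 22.9 and 34.1 RPKM, and in the cerebellum 0.0899, 0.128 and 0.386. The spinal cord libraries, in the order of replicates 3, 4, 5, 7 and 8, held 0, 0.0776, 0.122, 0.406 and 0 RPKM. No cortex value overlapped any other region, and no white matter value overlapped cerebellum or spinal cord. On the log2 scale the fold change in cortex was 5.60 ± 0.24 (SE), with an adjusted p of 7.2e-16 by limma. Kcnv1 passed the filter only through the cortex and white matter libraries, where its level was high. Its fold change and p-value are descriptive for that reason.

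Kcnf1, another subunit that forms no channel alone, ranked next in cortex. Its lowest, median and highest levels were 49.6, 75.1 and 125.3 RPKM in cortex, 6.64, 31.2 and 46.6 in the white matter and 0.134, 0.752 and 3.85 in the cerebellum. In spinal cord replicates 3, 4, 5, 7 and 8 it stood at 0.0508, 0.541, 28.1, 0 and 0.191 RPKM. Spinal cord replicate 5 thus reached the white matter range while the other 4 were at or near 0. The Kcnf1 log2 fold change in cortex was 4.31 ± 0.54 (SE, adjusted p = 6.97e-07, limma). In white matter it was 2.31 ± 0.57, a call that was lost without white matter replicates 7 and 8, whose striatal marker sums were 40.7 and 62.1 RPKM beside 433.8 to 1314 in the other 4.

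Kcng4, a modifier subunit of the Kcng family, had the opposite regional order. It stood at 1.52, 4.31 and 7.41 RPKM in the lowest, median and highest cortex libraries and at 0.394, 1.99 and 9.38 in the white matter. In cerebellum the same 3 values were 21.8, 26.8 and 70.3 RPKM, and spinal cord replicates 3, 4, 5, 7 and 8 held 14.6, 23.3, 8.52, 16.15 and 21.7. Every cerebellum library lay above every forebrain library, while spinal cord replicate 5 lay within the white matter range. On the log2 scale the fold change was 2.45 ± 0.39 (SE) in the cerebellum and 1.202 ± 0.419 in spinal cord. The spinal cord call was lost without spinal cord replicate 4 or 8 (adjusted p = 0.0654 and 0.0676, limma). The cortex value was -1.31 ± 0.38.

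Kcnc genes encode the fast channels that let neurons fire at high rates. Kcnc1 stood at 95.99, 114.2 and 134.9 RPKM in the lowest, median and highest cortex libraries, 42.6, 68.4 and 167.9 in the white matter and 65.8, 185.4 and 225.3 in the cerebellum. In spinal cord replicates 3, 4, 5, 7 and 8 it stood at 43.7, 83.9, 50.8, 73.2 and 54.0 RPKM. Cerebellum replicates 7 and 8 were low in their group and overlapped the other regions, and white matter replicate 7 stood above all cortex libraries. The log2 fold change of Kcnc1 was 0.92 ± 0.25 in the cerebellum and -0.83 ± 0.27 in spinal cord (SE). The cerebellum call was lost without cerebellum replicate 5 or 6 (adjusted p = 0.0553 and 0.0576, limma) and the spinal cord call without spinal cord replicate 3 (adjusted p = 0.0581, limma). Kcnc2 had another order, with 38.8, 56.5 and 84.9 RPKM in cortex, 13.8, 25.2 and 79.0 in the white matter, 0.744, 6.24 and 8.93 in the cerebellum and 15.2, 25.1 and 53.8 in spinal cord. All cerebellum libraries lay below every other library, and its log2 fold change was -2.96 ± 0.36 there and 1.93 ± 0.35 in cortex. Sums of 5 cerebellar neuron markers were 600.8 to 3719 RPKM in the cerebellum and 28.2 to 370.0 in the other regions, and their part in these results was not tested.

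Kcnh genes, of the ether-a-go-go, Erg and Elk types, had the highest median in cortex of the families with more than 2 genes tested, at 3.36 over 6 genes. Kcnh1, Kcnh3, Kcnh4, Kcnh5 and Kcnh7 were higher in cortex, with log2 fold changes from 2.24 to 3.85. Kcnh5 stood at 21.1, 47.4 and 57.2 RPKM in the lowest, median and highest cortex libraries, 3.55, 10.3 and 13.5 in the white matter and 0.115, 1.205 and 2.46 in the cerebellum. In the spinal cord, replicates 3, 4, 5, 7 and 8 held 1.33, 10.7, 6.655, 2.585 and 3.16 RPKM. Cortex replicate 7 was the lowest of its group, and still lay above every library of the other regions. The log2 fold change was 3.49 ± 0.36 (SE, adjusted p = 3.44e-08, limma).

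Kcnh2, the Erg channel gene known for its part in cardiac repolarization, was the only Kcnh gene called higher in spinal cord. Spinal cord replicates 3, 4, 5, 7 and 8 stood at 11.7, 36.5, 20.2, 23.4 and 14.7 RPKM. The lowest, median and highest values were 4.24, 4.99 and 9.003 RPKM in cortex, 1.89, 2.81 and 3.59 in the white matter and 1.91, 5.67 and 8.87 in the cerebellum. No spinal cord library overlapped another region, and the log2 fold change was 2.08 ± 0.33 (SE, adjusted p = 1.45e-05, limma). The sum of 5 spinal and motor neuron markers was 25.1 to 107.9 RPKM in spinal cord and 0 to 14.3 in the other regions, and its part in this result was not tested.

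Kcnq3 and Kcnq5 encode subunits of the M current, which holds back repetitive firing. Kcnq5 stood at 31.1, 38.2 and 43.4 RPKM in the lowest, median and highest cortex libraries, 9.54, 20.6 and 31.5 in the white matter and 0.343, 0.696 and 1.44 in the cerebellum. In the spinal cord, replicates 3, 4, 5, 7 and 8 held 0.0539, 0.246, 2.955, 0.322 and 0.846 RPKM. The highest white matter library lay just within the cortex range, and both forebrain regions lay above every cerebellum and spinal cord library. The log2 fold change of Kcnq5 in cortex was 3.66 ± 0.32 (SE). Kcnq3 ran from 10.4 to 31.3 RPKM in cortex, 21.6 to 43.5 in the white matter, 5.35 to 16.97 in the cerebellum and 3.75 to 27.6 in spinal cord, so that cortex overlapped every other region. Its cortex value was 0.64 with no call, and the white matter value was 1.10 ± 0.31. That white matter call was lost without white matter replicate 5, 6 or 7 (adjusted p = 0.0549 to 0.09, limma).

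Kcnd genes encode the A-type channels, and Kcnip genes their cytosolic calcium-binding partners. Kcnip2 stood at 73.9, 95.7 and 152.7 RPKM in the lowest, median and highest cortex libraries, 49.8, 109.0 and 126.5 in the white matter and 0.302, 1.70 and 4.91 in the cerebellum. In spinal cord replicates 3, 4, 5, 7 and 8 it stood at 1.37, 50.1, 28.3, 8.19 and 2.69 RPKM. The forebrain libraries lay above all cerebellum libraries, and spinal cord replicate 4 just exceeded white matter replicate 8, the lowest of its group. For Kcnip2 the log2 fold change was 3.05 ± 0.45 in cortex, 2.84 ± 0.47 in the white matter and -4.37 ± 0.47 in the cerebellum (SE). The pore subunit Kcnd2 had another order. Its lowest, median and highest values were 29.9, 39.3 and 44.6 RPKM in cortex, 22.6, 45.7 and 68.0 in the white matter and 20.1, 58.0 and 96.9 in the cerebellum, and spinal cord replicates 3, 4, 5, 7 and 8 held 6.80, 2.79, 1.31, 22.2 and 9.05. Spinal cord was the low region, with replicate 7 exceeding only cerebellum replicate 7 (log2 fold change -2.79 ± 0.38, adjusted p = 2.24e-06, limma). Kcnd2 over Kcnip2 had a median of 0.411 in cortex and 24.3 in the cerebellum, with ranges of 0.198 to 0.604 and 12.6 to 179.8. In cerebellum Kcnip1 and Kcnip4 were higher by 1.09 ± 0.36 and 1.18 ± 0.31, of which the Kcnip1 call was lost on leaving out any of 14 libraries in turn (adjusted p = 0.0516 to 0.109).

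The axonal Kcna genes changed less. Kcna1 (chr6:126636463-126645801 in GRCm38) stood at 270.1, 349.2 and 457.2 RPKM in the lowest, median and highest cortex libraries, 371.5, 576.3 and 952.9 in the white matter and 471.1, 781.6 and 963.0 in the cerebellum. Spinal cord replicates 3, 4, 5, 7 and 8 held 810.1, 445.2, 691.8, 296.2 and 473.5 RPKM. Cerebellum did not overlap cortex, whereas white matter and spinal cord did. The log2 fold change in cortex was -0.80 ± 0.20 (SE, adjusted p = 0.00228, limma) and was not called under quantile normalization. In cerebellum it was 0.66 ± 0.21, and the call was lost without cerebellum replicate 3, 5, 7 or 8 (adjusted p = 0.0656 to 0.0915).

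Kcna2, which forms channels together with Kcna1, had the other sign in cortex. Its lowest, median and highest values were 376.4, 502.7 and 585.3 RPKM in cortex, 206.7, 274.7 and 423.0 in the white matter and 187.2, 306.1 and 468.3 in the cerebellum, and the spinal cord replicates held 409.1, 158.2, 505.4, 300 and 331.3. All groups overlapped cortex in their highest libraries. On the log2 scale the fold change in cortex was 0.66 ± 0.20 (SE, adjusted p = 0.00997, limma). Kcna1 over Kcna2 had a median of 0.696 in cortex, 2.02 in the white matter, 2.53 in the cerebellum and 1.43 in spinal cord, with ranges of 0.476 to 1.22, 1.12 to 4.61, 1.01 to 4.84 and 0.987 to 2.81 that overlap in their ends.

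Of the beta subunits, which bind Kcna channels from inside, Kcnab2 was higher in cortex (0.95 ± 0.28, SE) and lower in the cerebellum (-1.83 ± 0.29), with mean levels of 236 and 58.3 RPKM. Kcnab3 stood at 65.9, 80.6 and 103.8 RPKM in the lowest, median and highest cortex libraries, 5.61, 13.3 and 39.8 in the white matter and 12.3, 25.6 and 44.5 in the cerebellum. In the spinal cord, replicates 3, 4, 5, 7 and 8 held 52.5, 34.0, 25.9, 83.2 and 65.5 RPKM. Cortex lay above white matter and cerebellum without overlap, and spinal cord spanned the gap. Kcnab1 was called in no region.

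**Figure D3:**
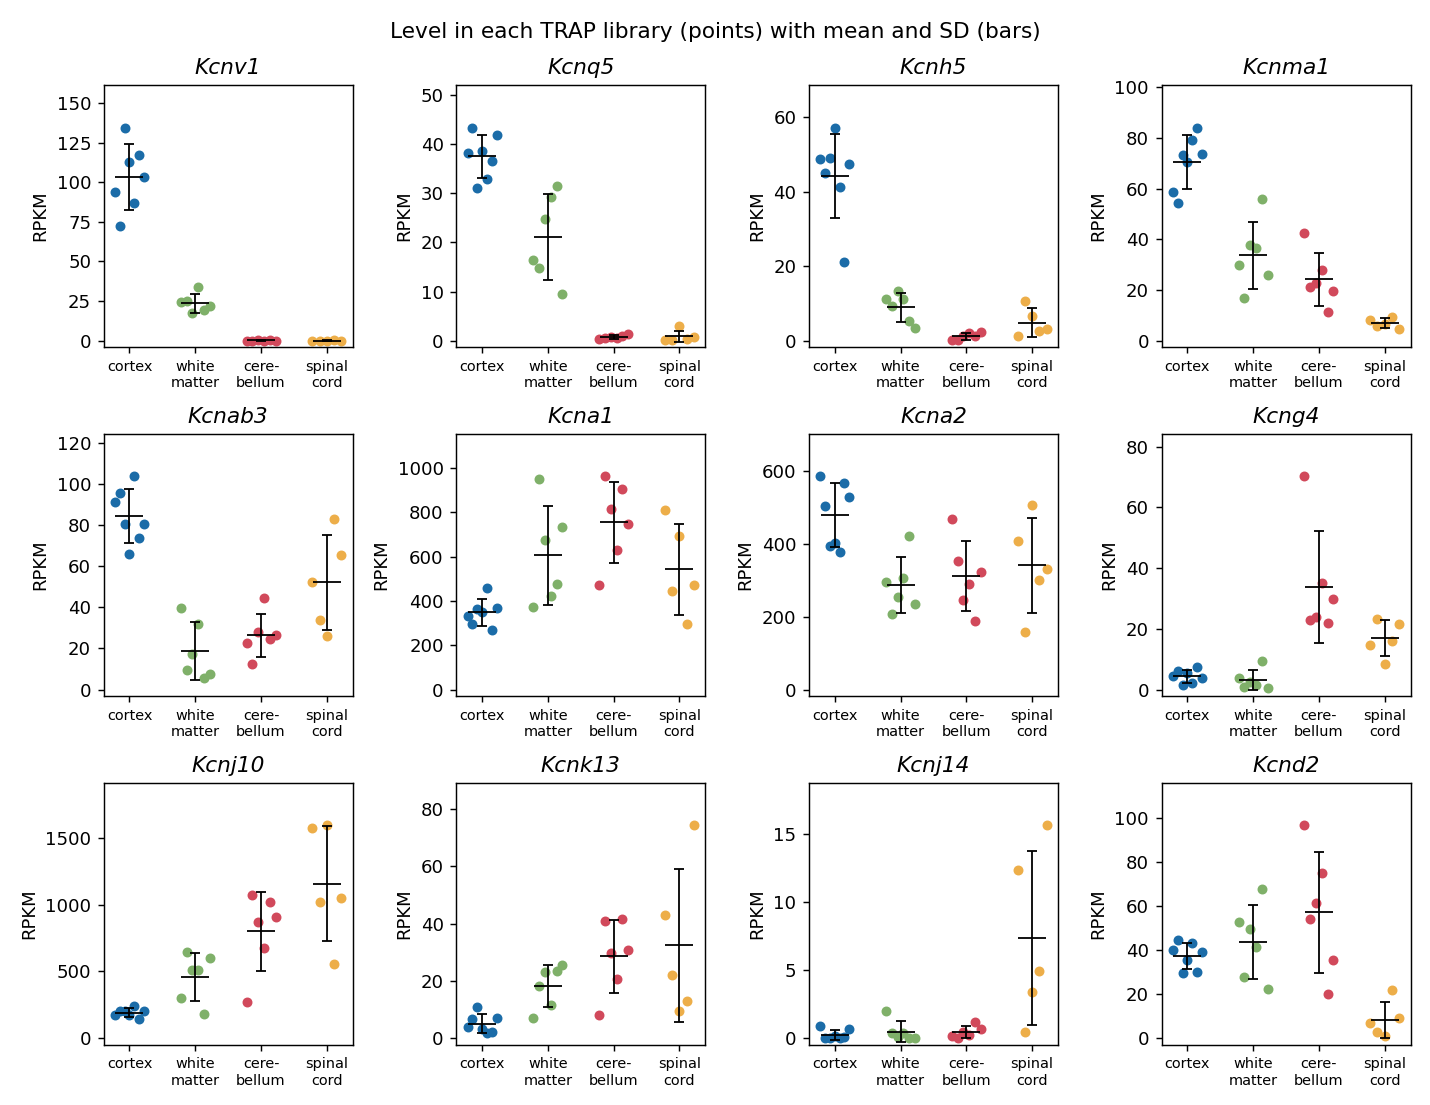
Level in RPKM of 12 Kcn genes in each TRAP library (points), with the mean and standard deviation of each region (bars; 7 cortex, 6 white matter, 6 cerebellum and 5 spinal cord libraries). Kcnv1, Kcnq5, Kcnh5, Kcnma1 and Kcnab3 have their highest mean in cortex, Kcng4 in the cerebellum, Kcnj10 and Kcnj14 in spinal cord, and Kcnd2 is lowest in spinal cord.

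Among the inward rectifiers, Kcnj10 was lower in cortex and higher in spinal cord and Kcnj4 the reverse, and their promoters are shown for that contrast. Each is 250 bases before to 50 bases after a start site in RefSeq on GRCm38.p6, with capitals marking GC boxes, GGGCGG or its complement CCGCCC. The start site shown for Kcnj4 lies inside the gene (chr15:79480226-79512511) and not at its outermost 5' end.
Kcnj10, chr1:172340960-172341259, plus strand: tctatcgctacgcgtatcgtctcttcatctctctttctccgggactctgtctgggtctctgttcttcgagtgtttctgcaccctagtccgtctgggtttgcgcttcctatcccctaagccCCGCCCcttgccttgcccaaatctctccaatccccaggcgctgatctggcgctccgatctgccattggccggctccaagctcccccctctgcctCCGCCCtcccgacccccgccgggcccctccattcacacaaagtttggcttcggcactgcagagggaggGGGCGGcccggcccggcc
Kcnj4, chr15:79505192-79505491, minus strand: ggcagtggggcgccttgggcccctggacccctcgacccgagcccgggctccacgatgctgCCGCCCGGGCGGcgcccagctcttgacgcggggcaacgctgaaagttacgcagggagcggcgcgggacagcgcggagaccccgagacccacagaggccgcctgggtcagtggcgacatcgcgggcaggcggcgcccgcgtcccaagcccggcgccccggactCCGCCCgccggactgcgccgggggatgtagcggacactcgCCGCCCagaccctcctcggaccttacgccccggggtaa
Kcnj10 holds 3 matches and 21 CG pairs, and Kcnj4 holds 4 matches, of which a pair lie end to end, and 41 CG pairs. A GC box on either strand was present in 47.9% of the 94 promoters found for 69 Kcn genes and in 48.4% of 19085 promoters of genes in the tables, nearly the same share. A match is of letters only.

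Kcnj10 (chr1:172341210-172374085) encodes the potassium-buffering channel of glia, and was the Kcnj gene with the highest level in all 4 regions. It stood at 144.4, 201.7 and 244.5 RPKM in the lowest, median and highest cortex libraries, 184.3, 510.2 and 646.1 in the white matter and 268.8, 887.7 and 1075 in the cerebellum. Spinal cord replicates 3, 4, 5, 7 and 8 held 1569, 1016, 1593, 558.6 and 1050 RPKM. Cortex lay below every cerebellum and spinal cord library and overlapped white matter only in white matter replicate 7. For Kcnj10 the log2 fold change was -1.86 ± 0.25 in cortex and 1.48 ± 0.28 in spinal cord (SE, adjusted p = 1.91e-06 and 0.000159, limma).

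The lowest library of Kcnj10 in each of the other 3 regions was also the one with the lowest sum of mature oligodendrocyte markers. White matter replicate 7 held 184.3 RPKM of Kcnj10 beside a marker sum of 10070, cerebellum replicate 2 held 268.8 beside 7713, and spinal cord replicate 7 held 558.6 beside 30810. In cortex, replicate 6 had both the highest Kcnj10 level and the highest marker sum, 244.5 beside 10080. Astrocyte marker sums were 1820 to 4107 RPKM in cortex, 2093 to 8743 in the white matter, 298.4 to 1190 in the cerebellum and 1341 to 2237 in the spinal cord. The part of either in the Kcnj10 result was not tested. Kcnj16, which forms channels with Kcnj10, was not called across regions (adjusted p = 0.263, limma), with means of 13.6, 24.1, 13.4 and 16.6 RPKM in cortex, white matter, cerebellum and spinal cord. The level of Kcnj10 over Kcnj16 was 9.97 to 19.0 in cortex and 55.9 to 90.2 in spinal cord, without overlap. In white matter it was 6.96 to 53.3, which overlapped cortex. In the cerebellum it was 11.2 to 523.9, which overlapped every other region.

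Kcnj4, a strong rectifier of forebrain neurons, was listed at 0 in all 5 spinal cord libraries and reached at most 0.153 RPKM in the cerebellum. It stood at 1.81, 5.97 and 7.01 RPKM in the lowest, median and highest cortex libraries and at 3.97, 6.93 and 11.9 in the white matter, which overlap. The log2 fold change in the white matter was 2.73 ± 0.30 (SE, adjusted p = 3.13e-07, limma). Kcnj4 likewise passed the filter only through the cortex and white matter libraries, so these values are descriptive. Kcnj14 was the rectifier found nearly only in spinal cord, at 12.4, 0.450, 3.38, 4.94 and 15.7 RPKM in replicates 3, 4, 5, 7 and 8, beside at most 0.927 in cortex, 2.01 in the white matter and 1.18 in the cerebellum. Spinal cord replicate 4 fell within the range of the other regions and the other 4 lay above it (log2 fold change 2.73 ± 0.48, adjusted p = 6.07e-05).

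Kcnj3, Kcnj6 and Kcnj9 encode subunits of the G protein-gated channels through which neurotransmitters slow firing. All 3 were higher in cortex and lower in spinal cord, with log2 fold changes of 1.17 ± 0.26, 2.11 ± 0.37 and 2.21 ± 0.43 (SE) in cortex and -1.11 ± 0.29, -2.33 ± 0.42 and -3.09 ± 0.48 in spinal cord. Kcnj9 stood at 32.1, 71.8 and 109.5 RPKM in the lowest, median and highest cortex libraries and at 1.045, 22.9, 0.545, 3.12 and 13.6 in the spinal cord replicates, with no overlap. Its lowest, median and highest values were 9.77, 27.1 and 37.0 in the white matter and 16.4, 38.5 and 80.4 in the cerebellum. Kcnj5, another G protein-gated subunit, was not called across regions (adjusted p = 0.619, moderated F test). Kcnj12, of the classical strong rectifiers, was higher in the cerebellum (2.06 ± 0.37) and lower in the white matter (-1.60 ± 0.37), while Kcnj8, the vascular KATP subunit, was called in no region. Kcnj11, the neuronal KATP subunit, was higher in cortex (1.33 ± 0.43, not called under quantile normalization) and lower in spinal cord (-1.97 ± 0.48).

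The leak channel genes ran in both directions, with 4 of 10 tested higher and 2 lower in cortex. Kcnk13, a two-pore-domain gene also expressed by microglia, stood at 1.84, 3.98 and 10.8 RPKM in the lowest, median and highest cortex libraries, 7.21, 20.7 and 25.7 in the white matter and 8.10, 30.2 and 41.7 in the cerebellum. In the spinal cord, replicates 3, 4, 5, 7 and 8 held 43.0, 22.3, 9.44, 12.9 and 74.3 RPKM. Each of the other regions overlapped cortex through a single library, and the log2 fold change in cortex was -2.20 ± 0.38 (SE, adjusted p = 6.58e-05, limma). The sum of 5 microglial markers was 22.7 to 36.5 RPKM in cortex, 12.05 to 38.4 in the white matter, 3.28 to 12.1 in the cerebellum and 6.96 to 71.15 in spinal cord, and its part in this result was not tested. Kcnk10, a stretch-sensitive leak channel, stood at 8.40, 15.8 and 23.7 RPKM in the lowest, median and highest cerebellum libraries, and at most at 3.58 in cortex, 9.82 in the white matter and 5.69 in spinal cord. White matter replicate 3 alone reached the cerebellum range (log2 fold change 2.42 ± 0.40). Its relative Kcnk2 had another order, with means of 28.3, 42.7, 5.10 and 2.55 RPKM in cortex, white matter, cerebellum and spinal cord. The log2 fold change of Kcnk2 in the white matter was 2.51 ± 0.37. Kcnk1, a weak rectifier, had a median of 68.3 RPKM in cortex, 74.2 in the white matter, 74.6 in the cerebellum and 86.5 in spinal cord. Its cortex libraries spanned only 61.9 to 69.1 RPKM while those of the other regions spanned 31.1 to 140.2, and the F test gave an adjusted p of 0.946.

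Kcnma1, the large-conductance calcium-activated channel, stood at 54.3, 73.4 and 84.0 RPKM in the lowest, median and highest cortex libraries, 17.0, 33.1 and 55.7 in the white matter and 11.5, 21.9 and 42.3 in the cerebellum. Spinal cord replicates 3, 4, 5, 7 and 8 held 8.05, 5.86, 6.499, 9.46 and 4.67 RPKM. No spinal cord library reached another region, and cortex overlapped only white matter replicate 7. On the log2 scale the fold change was 2.01 ± 0.23 in cortex and -2.37 ± 0.26 in spinal cord (SE). Its neuronal beta subunit Kcnmb4 had values of 1.86 ± 0.37 and -2.42 ± 0.41. Kcnma1 over Kcnmb4 had medians between 1.08 and 1.48 in the 4 regions, with overlapping ranges. The small-conductance gene Kcnn3 was higher in the white matter (1.54 ± 0.38), and Kcnn2 was called in no region. Of the sodium-activated genes, Kcnt2 was higher in cortex (3.50 ± 0.40) and Kcnt1 was called in no region.

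None of 3 Kcne genes tested, encoding small accessory subunits, was called across regions. Kcnrg, named for its likeness to the assembly domain of potassium channels although it forms none, stood at 0.804, 18.4 and 61.7 RPKM in the lowest, median and highest cortex libraries and at 0, 0, 2.735, 0.381 and 0.240 in spinal cord replicates 3, 4, 5, 7 and 8. White matter ran from 0.0753 to 20.2 RPKM and cerebellum from 2.36 to 25.3. Single libraries of cortex and of white matter differed by more than the medians of these regions. The call in spinal cord (log2 fold change -3.38 ± 0.72, SE) held in all alternatives run, and that in cortex was lost without cortex replicate 5, 6 or 7 (adjusted p = 0.0501 to 0.0827, limma). Kcnmb1, a smooth muscle beta subunit, reached 181.0 RPKM in spinal cord replicate 4 and 49.3 in white matter replicate 5, and was called in no region. The 16 members not tested in this table had group means of at most 1.82 RPKM, that of Kcna10 in cortex, where 12.4 RPKM in replicate 7 stood beside at most 0.222 in the other 6.

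Cortex was also set directly against white matter, the tissue below it. Of 78 members 8 were higher and 2 lower, beside 5.39% of all genes called. Kcnab3 had the largest value, 2.49 ± 0.37 (SE, adjusted p = 0.000263, limma), followed by Kcnh5 (2.31 ± 0.45), Kcnv1 (2.11 ± 0.30) and Kcnh7 (2.03 ± 0.47), and these 4 calls held in all alternatives run. The lower genes were Kcnk13 (-1.82 ± 0.47) and Kcnj10 (-1.14 ± 0.31). The Kcnk13 call was lost without white matter replicate 3, 5 or 8 (adjusted p = 0.0515 to 0.0593), and the Kcnj10 call without cortex replicate 2 or 5 or white matter replicate 3, 5, 6 or 8 (0.0532 to 0.0917). The count of 10 fell to 4 without white matter replicate 3, to 5 without white matter replicate 8 and to 6 without cortex replicate 2 or 5, and rose to 19 without spinal cord replicates 4 and 7 and to 20 with only these groups in the fit. White matter libraries also held forebrain neuron RNA (above), and 7 members were called without white matter replicates 7 and 8. The share of all genes called in these fits is not given here. These counts thus cannot be read as particular to the members.

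The genes that work with potassium channels, 29 fixed by name, were tested beside them. Of 28 tested, 10 were higher and 5 lower in cortex (53.6%, beside 32.7% of all genes). Lrrc55, a Kcnma1 accessory, changed by 2.14 ± 0.45 (SE, log2) and Dpp10, which binds Kcnd channels, by 1.48 ± 0.26. Lower in cortex were Hcn2 (-1.69 ± 0.34), the chloride and potassium importer Slc12a2 (-1.62 ± 0.28) and Cntn2 (-1.52 ± 0.28), which holds Kcna1 and Kcna2 channels beside the node. Their mean levels in cortex and spinal cord were 9.82 and 64.9 RPKM for Hcn2, 60.8 and 203 for Slc12a2 and 65.9 and 230 for Cntn2. The exporter Slc12a5 of neurons stood at 123.8 to 148.0 RPKM in cortex and 32.2 to 90.1 in the white matter, without overlap. In white matter 1 partner was higher, Abcc9, the KATP regulator of pericytes (1.77 ± 0.43), and 1 lower. In cerebellum 2 were higher and 1 lower, and in spinal cord 3 were higher and 8 lower. These shares of 7.14%, 10.7% and 39.3% lay near those of all genes, which were 6.85%, 13% and 38.3%. Pericyte marker sums were 11.3 to 148.8 RPKM in the white matter and 3.26 to 24.8 in the cerebellum, and their part in the Abcc9 value was not tested.

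The rTg4510 table asks whether tau pathology in the forebrain goes with other potassium channel levels in frontal cortex. Of 79 members tested, 5 were higher and 11 lower in positive libraries, beside 7.42% of all 13972 genes called (5.77% higher, 1.65% lower). The median log2 fold change was -0.15 over the members and 0.09 over all genes, and quantile normalization gave 3 higher and 12 lower. The groups did not overlap for 27 of the 79 members (34.2%), beside 31.6% of all genes tested, and for all 16 called members, as for all 1037 genes called. Of the 5 higher members, Kcnk15 passed the filter only through the positive libraries. The lower genes included Kcnq3 and Kcnq5, and the higher ones the glial Kcnj10.

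Kcnt2, the sodium-activated channel, stood at 31.3, 31.5 and 29.2 RPKM in the negative libraries 1, 2 and 3 and at 17.8, 14.6 and 14.9 in the positive ones (log2 fold change -0.94 ± 0.10, SE, adjusted p = 0.00285, limma). Kcne1l, a Kcne accessory subunit, stood at 6.96, 9.49 and 6.59 RPKM in negative and 19.5, 18.8 and 21.9 in positive libraries (1.34 ± 0.15, adjusted p = 0.00295). These had the smallest adjusted p of the 16, and their calls held in all 14 alternatives run. Kcns1, a modifier of Kcnb channels, stood at 9.003, 7.27 and 11.75 RPKM in negative and 3.996, 2.965 and 2.56 in positive libraries, the largest decrease (-1.42 ± 0.21). Its call was lost only without positive replicate 2 (adjusted p = 0.052).

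The M current subunits Kcnq3 and Kcnq5 fell. Kcnq3 stood at 28.3, 28.4 and 31.5 RPKM in negative and 21.0, 18.6 and 16.2 in positive libraries (-0.65 ± 0.12, SE). Kcnq5 stood at 69.5, 85.9 and 78.5 against 61.1, 47.2 and 55.5 RPKM (-0.51 ± 0.12). In both genes the lowest negative library stood above the highest positive one, and both calls were lost without negative replicate 1 or 3 (lost calls had adjusted p = 0.0618 to 0.0764 for Kcnq3 and 0.0742 to 0.141 for Kcnq5, limma).

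Other neuronal members were lower too. Kcnj6, the G protein-gated subunit, stood at 44.3, 38.1 and 54.0 RPKM in negative and 23.1, 29.5 and 21.2 in positive libraries (-0.87 ± 0.16, SE). The mechanically gated leak channel Kcnk4 (-1.19 ± 0.20), Kcns3 (-0.96 ± 0.24), Kcnh7 (-0.47 ± 0.12) and Kcnma1 (-0.34 ± 0.08) were also called lower.

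In the other direction, Kcnj10 stood at 119.7, 138.2 and 110.5 RPKM in negative and 180.2, 256.2 and 253.3 in positive libraries (0.89 ± 0.15, SE, adjusted p = 0.0157, limma). Positive replicate 1 was the lowest of the positive libraries and still above all negative ones. Its partner Kcnj16 was not called, and Kcnj10 over Kcnj16 was 3.70 to 5.47 in negative and 6.78 to 7.80 in positive libraries. Kcnf1 stood at 73.7, 82.5 and 67.1 against 110.0, 119.6 and 101.8 RPKM (0.57 ± 0.10), so this modifier subunit rose where the modifiers Kcns1 and Kcns3 fell. Kcnk6, a leak channel, stood at 4.80, 7.21 and 4.57 against 12.7, 8.84 and 13.1 RPKM (1.01 ± 0.21). Kcnk15 was at 0, 0.0989 and 0 in negative and 0.504, 2.34 and 2.59 in positive libraries.

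These calls rest on few libraries. The counts of members below stand without the share of all genes called in the same fits. A swing in them cannot be read as particular to the members. The count of 16 fell to 3 without negative replicate 1 or 3, to 4 without positive replicate 2 and to 5 without positive replicate 3, and rose to 30 without positive replicate 1. All but Kcnt2, Kcne1l and Kcns1 were lost without negative replicate 1 and without negative replicate 3, and over all single libraries left out the lost calls had adjusted p from 0.052 to 0.174. Several cell type marker sums moved with the genotype. Astrocyte sums were 2845 to 2992 RPKM in negative and 3862 to 4095 in positive libraries, microglial sums 189.3 to 223.2 and 424.2 to 546.4, and forebrain excitatory neuron sums 1303 to 1686 and 755.1 to 1158. Inhibitory neuron sums rose, from 702.4 to 919.2 RPKM in negative to 953.6 to 1197 in positive libraries. Pan-neuronal sums overlapped, at 6921 to 7370 RPKM in negative and 6141 to 7050 in positive libraries. The part of these sums in the changes of Kcnj10 and of the neuronal members was not tested. Markers of other tissue differed between libraries as well. Choroid plexus marker sums were 2154, 27.7 and 470.2 RPKM in the negative libraries and 15.2 to 29.7 in the positive ones, and Kcne2, an accessory subunit of that tissue, followed them at 8.90, 0.276 and 2.43 RPKM against 0 to 0.105. Striatal sums were 89.9, 853.8 and 101.2 RPKM in negative and 517.2, 248.9 and 415.2 in positive libraries. Of 27 partner genes tested, 4 were higher and 1 lower (18.5%, beside 7.42% of all genes), the lower one being the neuronal exporter Slc12a5 (-0.40 ± 0.09). The count was 0 on leaving out negative replicate 1 or 3 or positive replicate 2 or 3.

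**Figure D4:**
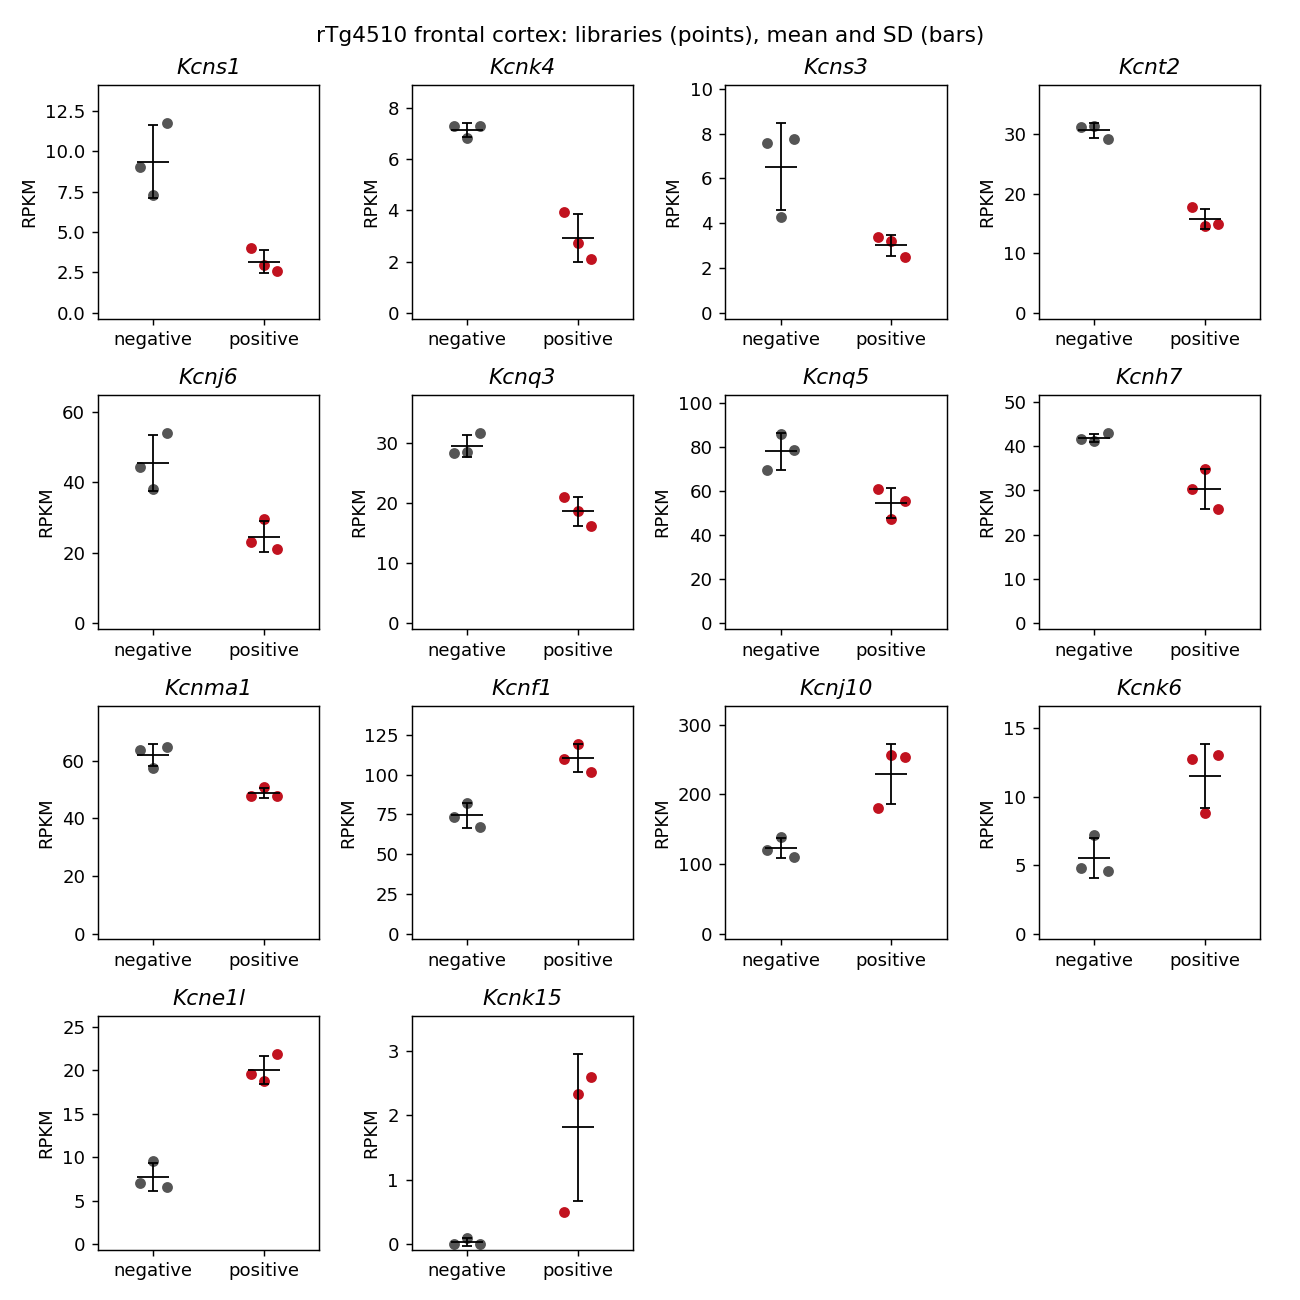
Level in RPKM of 14 Kcn genes called between 3 rTg4510-negative (grey) and 3 rTg4510-positive (red) frontal cortex libraries, with the mean and standard deviation of each group (bars). Panels run in order of log2 fold change from Kcns1 to Kcnk15, which passed the filter only through the positive libraries, and the groups do not overlap in any panel.

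The miR-142 table asks whether loss of this microRNA goes with other levels in prefrontal cortex. MicroRNAs pair through their seed, bases 2 to 8, with sites in the 3' UTRs of target transcripts. The mature miR-142a-3p from RefSeq (chr11:87756903-87756925, plus strand, GRCm38.p6) is shown with its seed in capitals, and below it the sites of 6 Kcn genes whose 3' UTR in GENCODE vM21 holds the complement ACACTAC, in capitals, each with its GRCm38 position in that UTR.
miR-142a-3p: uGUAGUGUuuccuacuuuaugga
Kcnd1, chrX:7837118-7837147, plus strand: gagatagcacaaACACTACcaccccttttc
Kcng4, chr8:119624414-119624443, minus strand: aactcctctataACACTACcagtctggccc
Kcnh1, chr1:192506186-192506215, plus strand: accctgcccctgACACTACccacaacacca
Kcnk9, chr15:72510552-72510581, minus strand: tgggctttggctACACTACgcacgcacaag
Kcnma1, chr14:23297636-23297665, minus strand: ataatggtctcaACACTACcccatggaagg
Kcns2, chr15:34843237-34843266, plus strand: acactcattaacACACTACtgtgccagcgt
In all, 7 of 94 members (7.4%) hold a match, which compares with 1216 of 19400 genes (6.3%), and the median 3' UTR was 1746.5 bases in members and 994 in all genes. The log2 fold change of the 7 between null and wild-type libraries ran from -0.39 to 0.22, with a median of -0.02, the same as the median of the 71 members with no match. A match is a description of letters, not evidence of binding.

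No Kcn gene was called by limma in any of the 3 comparisons, beside 0.468% of 13879 genes between null and wild type and 0% in the other 2. At an unadjusted p under 0.05 there were 15 of 78 members (22.6% of all genes) between null and wild type, 5 (7.26%) between heterozygous and wild type and 1 (3.29%) between null and heterozygous, and voom on recovered reads called 0 in each. The count between null and wild type rose to 4 without null replicate 2. It rose to 5 without heterozygous replicate 4 and to 5 without wild-type replicate 1. The share of all genes called in these fits is not given here, so the rise cannot be read as particular to the members. The title codes carry a number that is not explained in the labels: all null libraries and heterozygous replicates 1 to 3 have 14, heterozygous replicate 4 and wild-type replicates 1 and 2 have 13, and wild-type replicates 3 and 4 have 15. Null and wild type share no number, so genotype and that number cannot be told apart. The codes also carry a letter, F in null replicate 1, heterozygous replicate 4 and wild-type replicates 1 and 2 and M in the others, so heterozygous replicate 4 differs from its group in both.

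Kcnip2, the Kcnd partner, had the smallest p. It stood at 73.9, 79.8, 75.5 and 82.6 RPKM in null libraries 1 to 4, 85.1, 87.0, 79.2 and 89.9 in heterozygous and 96.9, 85.8, 96.5 and 99.96 in wild-type ones (log2 fold change of null against wild type -0.28 ± 0.06, SE, adjusted p = 0.0514, limma). Null and wild type did not overlap, and the adjusted p was 0.0264 to 0.0426 without heterozygous replicate 4, null replicate 2 or wild-type replicate 1. Kcnh3, an Elk channel of the forebrain, stood at 38.9, 41.6, 40.3 and 42.3 RPKM in null, 40.6, 43.8, 41.8 and 50.8 in heterozygous and 48.8, 47.9, 50.4 and 51.4 in wild-type libraries (-0.28 ± 0.07, adjusted p = 0.056). Heterozygous replicates 1 to 3 lay with the null libraries, which share their title number, and replicate 4 with the wild-type libraries, of which replicates 1 and 2 share its number. Without heterozygous replicate 4, null replicate 2 or wild-type replicate 1 the adjusted p of Kcnh3 was 0.0174 to 0.0462.

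Kcnab3, the beta subunit, was higher in null libraries. It stood at 33.7, 39.65, 41.25 and 29.6 RPKM in null, 29.1, 38.6, 37.1 and 18.6 in heterozygous and 24.8, 23.4, 14.2 and 20.4 in wild-type libraries (0.80 ± 0.23, SE, adjusted p = 0.0819, limma, or 0.0279 without heterozygous replicate 4). Within title number 14 the mean was 36.0 RPKM in 4 null and 35.0 in 3 heterozygous libraries. Kcnk9, a leak channel and 1 of the 7 with a site, followed the same split in the other direction, at 15.2, 17.0, 14.4 and 13.96 RPKM in null, 14.1, 15.3, 14.7 and 22.1 in heterozygous and 21.0, 22.95, 18.9 and 17.3 in wild-type libraries (-0.39 ± 0.13, adjusted p = 0.105, or 0.0321 without heterozygous replicate 4). For Kcng1 the wild-type libraries split with the number and the letter, which cannot be told apart there, with 4.75 and 6.21 RPKM in replicates 1 and 2 and 12.4 and 11.4 in replicates 3 and 4, beside 4.05 to 5.26 in null libraries. Kcnj10 was lowest in heterozygous libraries, at 40.1 to 47.9 RPKM, against 40.6 to 54.5 in null and 52.0 to 66.3 in wild-type ones (heterozygous against wild type -0.43 ± 0.11, adjusted p = 0.674).

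**Figure D5:**
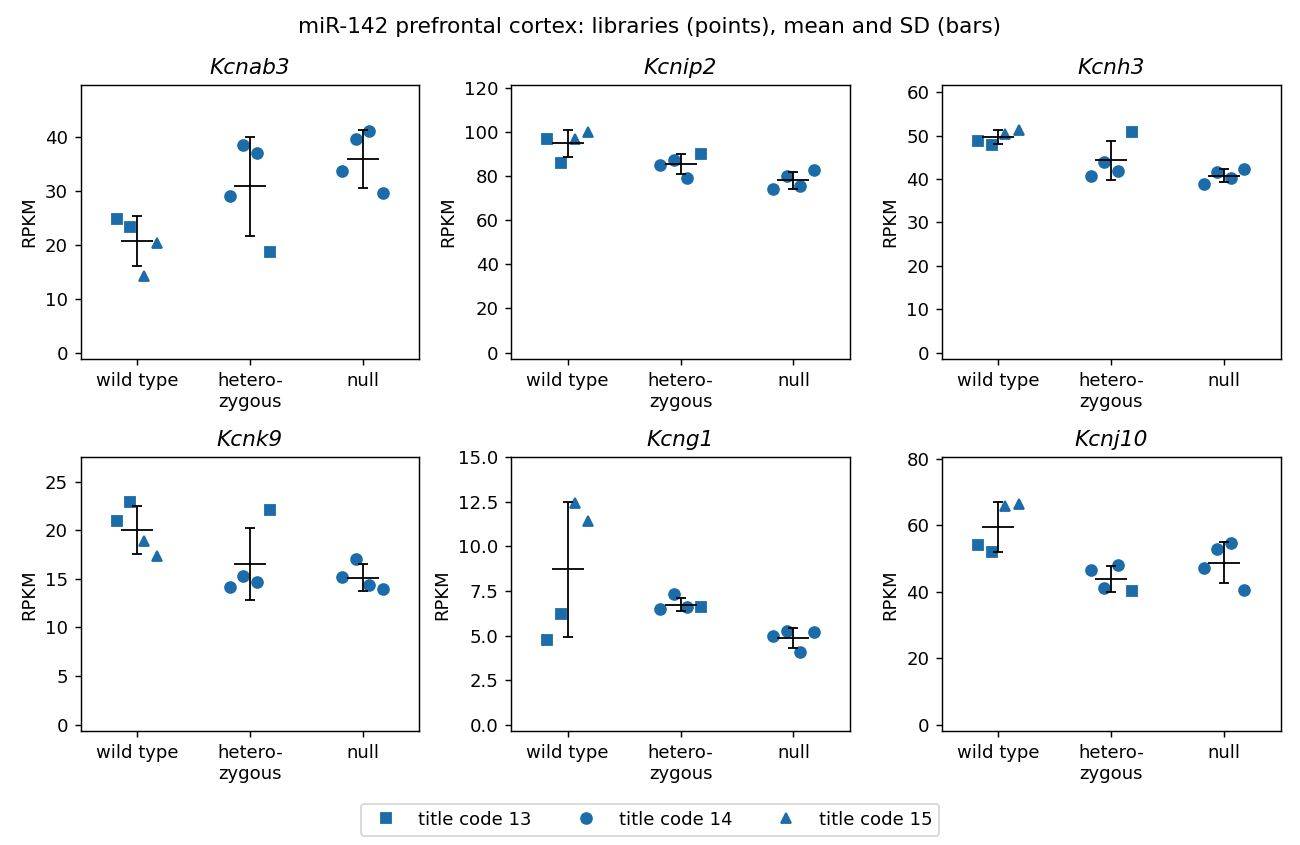
Level in RPKM of 6 Kcn genes in the miR-142 prefrontal cortex libraries (4 wild type, 4 heterozygous, 4 null), with the mean and standard deviation of each genotype (bars) and the marker giving the number in the title code (square 13, circle 14, triangle 15). In Kcnab3, Kcnh3 and Kcnk9 the heterozygous library with code 13 lies with the wild-type libraries, and in Kcng1 the wild-type libraries split by code, number and letter alike.

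The TRAP cortex levels can be set beside the whole-tissue cortex levels only with care, since the tables were normalized separately and made with different library kits, and no test was run between them. Kcnv1 and Kcna2 had means of 103 and 479 RPKM in TRAP cortex, 81.9 and 288 in rTg4510-negative cortex and 149 and 349 in miR-142 wild-type cortex. The means of Kcnj4 were 5.22 RPKM in TRAP cortex beside 56.5 and 81.5 in the other 2 tables, and those of Kcnd2 37.6 beside 96.9 and 77.3. In the other direction, Kcnrg stood at 21.3 RPKM beside 0.739 and 0.702, and Kcnj10 at 193 beside 123 and 59.5. Of these neuronal members, Kcna2 was above both whole-tissue means and Kcnj4 and Kcnd2 below both.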

How the data were processed

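The authors deposited RPKM values per gene in 3 tables, which were normalized separately. The submitters' processing notes name the aligner STAR, the counter HTSeq and the build mm10, with versions not given in the sources used here. RPKM values were whole multiples of 1 read for 18779 of 18782 genes within 0.005, from which library totals were recovered, and most gene lengths so found are taken as coding lengths, since 94.1% divide by 3 and 77.6% differ by under 5% from the union coding length. Genes at 0.5 RPKM or more in at least 5 libraries of TRAP, 3 of rTg4510 or 4 of miR-142 were tested with limma 3.58.1 (R 4.3.3, trend and robust options) on log2(RPKM + 0.5), with all groups of a table in 1 fit and Benjamini-Hochberg adjustment over all genes tested at 0.05. The procedure was tested on simulated data. Tables and figures used Python 3.11.15. Promoters and the microRNA are from RefSeq on GRCm38.p6 and 3' UTRs from GENCODE vM21. The members and gene lists were chosen with earlier results of these data known. Genes named are the largest called changes each way, the highest member of each subfamily, fixed glial and neuronal channels and, without calls, the smallest p-values. Alternatives varied the pseudocount, filter, scaling, test options and libraries. The one without white matter replicates 7 and 8 was chosen after seeing the data. Some genes are not reported here.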

Additional observations from a re-analysis of the deposited data

Results flagged for a closer look

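In each group of 4 to 7 libraries, the gap between the highest or lowest library and its neighbour was set against Dixon's 95% limit for the 26 genes given library by library. Chance passes this limit in about 1 in 20 groups, and 16 of 182 groups passed. In the TRAP table, Kcnf1 stood at 28.1 RPKM in spinal cord replicate 5 and at 6.635 in white matter replicate 5, far above and far below their groups. Spinal cord replicate 5 also stood apart for Kcng1, at 2.142 RPKM beside 0 in the other 4. Spinal cord replicate 4 held 181.0 RPKM of Kcnmb1 and 0.1069 of Kcnh3, both the highest of the group. Cortex replicate 7 was far below its group for Kcnh5, at 21.08 RPKM, and for Kcnj9, at 32.06. Cerebellum replicate 2 was low for Kcnj10, at 268.8 RPKM, and white matter replicate 3 was low for Kcnrg, at 0.0753. Cerebellum replicate 5 was high for Kcnv1, at 0.3859 RPKM, and cerebellum replicate 3 for Kcnj4, at 0.1525.

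In the miR-142 table, null replicate 2 was the highest of its group for Kcna1 (285.2 RPKM) and the lowest for Kcnf1 (121.3 RPKM). The other libraries that stood apart were heterozygous replicate 2, high for Kcng1 at 7.312 RPKM, heterozygous replicate 1, low for Kcnma1 at 71.41, and wild-type replicate 4, high for Kcnk13 at 8.098.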

How the results depend on the processing

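No Kcn gene called in the reported fit changed direction under the alternatives that gave it a value. The median log2 fold change of all genes did change sign, from 0.11 to -0.04 in cortex and from 0.08 to -0.02 in white matter under quantile normalization, and from 0.09 to -0.01 in rTg4510 under quantile normalization and under median-of-ratios scaling. The count of Kcn genes called between cortex and white matter was 16 under quantile normalization, 19 without spinal cord replicates 4 and 7 and 20 when fitted on these groups alone, while voom on recovered reads called 14, of which 92.9% were higher beside 80% in the reported fit. The rTg4510 count was 10 without the trend and robust options, and the null against wild-type count was 1 under a filter at 2 RPKM, under quantile normalization and when fitted on these groups alone. The cause was not tested. Of the partner genes, 1 was called in white matter under a filter at 2 RPKM and without white matter replicates 7 and 8, 5 in cerebellum under quantile normalization and under voom, and 2 between cortex and white matter without white matter replicates 7 and 8.

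Leaving out each library in turn gave 54 to 60 Kcn genes across regions, 43 to 53 in cortex, 17 to 23 in white matter, 25 to 33 in cerebellum, 37 to 46 in spinal cord, 4 to 14 between cortex and white matter, 3 to 30 in rTg4510 and 0 to 5 between null and wild type. For the partner genes the ranges were 1 to 3 in white matter, 1 to 6 in cerebellum, 3 to 6 between cortex and white matter, 0 to 8 in rTg4510 and 0 to 3 between null and wild type. Of the calls, 35 of 50 in cortex, 15 of 21 in white matter, 24 of 30 in cerebellum, 26 of 43 in spinal cord, 4 of 10 between cortex and white matter and 2 of 16 in rTg4510 were kept in every alternative. With few libraries per group, small changes in the members could not be detected.

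The TRAP regions share replicate numbers. Over 31 pairs of libraries with the same number, deviations from the group means correlated at -0.236 to 0.272 (median 0.0603, beside -0.0215 over 184 pairs with different numbers). Of the 31 pairs, 13 were over 0.1, and 7 of 24 libraries correlated best with their own number. The numbers were not taken as a pairing, for which every pair had to be over 0.1. A true pairing could also fail that rule, so a pairing is not excluded. With the replicate block, 58 Kcn genes were called across regions, 50 in cortex, 21 in white matter, 32 in cerebellum, 44 in spinal cord and 10 between cortex and white matter. With the same block the partner genes called were 19, 15, 2, 6, 10 and 6 in that order.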
